A study of Mus musculus with 12 samples.

Results

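The comparison described here set the right ventricle against the left ventricle of wild-type mouse embryos, gene by gene. It used 6 of the 12 arrays of the series, namely the 3 samples labelled as wild type CD1, right ventricle (WT_RV) and the 3 labelled as wild type CD1, left ventricle (WT_LV). The embryos were of the outbred strain CD1, untreated, and taken at 14.5 days post coitum (E14.5). Both ventricles were microdissected, and each sample was a pool of tissue from 15 to 30 embryos, so a replicate measures a pool and not an embryo. Nothing in the labels says that pools with one number came from one litter, and p-values measure the spread between these pools. The other 6 arrays came from Nos3-/- embryos of strain B6.129P2-Nos3tm1unc/J (KO), which lack a working endothelial nitric oxide synthase gene in every cell, again with 3 pools for each ventricle. They served to estimate the spread and, in the last comparison, to show the same chamber difference in another strain. A positive difference means a higher value in the right ventricle. All values are log2 expression values, so a difference of 1 is a 2-fold difference.

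The ventricles of the mammalian heart arise from different pools of progenitors. The left ventricle comes mainly from the first heart field, while the right ventricle and the outflow tract come mainly from the second heart field. Hand1 and Tbx5 are the textbook transcription factors of the left ventricle, Hand2 is that of the right, and Nppa, which encodes atrial natriuretic peptide, is known for its stronger expression in the left ventricle of the fetal heart. At mid-gestation both chambers consist of trabecular and compact myocardium with endocardium inside, epicardium outside, and vessels and mesenchyme between.

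All 6 wild-type arrays carried the markers of ventricular myocardium. Myl2, the ventricular regulatory myosin light chain, lay between 15.01 and 15.03, Myh7 between 14.50 and 14.87, and Hey2, a transcription factor of compact myocardium, between 10.01 and 10.21, against a median of 5.67 over all values. Of the markers that define other tissues, Myod1, the master regulator of skeletal muscle, lay between 4.33 and 4.49, Foxn1 of thymus between 4.10 and 4.69, and Cdh1 of epithelia between 2.93 and 3.31. Not all such markers were low. Myh3, a myosin of skeletal muscle, lay above the median of 5.67 in all 6 arrays, and its values are given below. The mean levels of the atrial (8.80 to 9.23), epicardial (7.93 to 8.66) and erythroid (7.39 to 7.98) gene lists also lay above this median. That of the list for lung, thymus and foregut was 4.58 to 4.78. The 5 genes taken as chamber markers all separated the ventricles without overlap: Wif1, Acta1 and Sema3c were higher on the right, and Gtsf1 and Nppa were higher on the left. They were chosen with earlier results of these data known, so their separation is not a check of chamber identity. Of all genes, 15.7% did not overlap. Across genes, which are not independent replicates, Pearson's r was between 0.992 and 0.997 for every pair of arrays. Liver transcripts were uneven: the mean level of 17 fetal liver genes was 7.62 in WT_RV replicate 1 and 5.51 to 6.57 in the other 5 arrays.

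WT_RV replicate 3 stood apart from the other right ventricles in its technical controls. The mean of 27 poly-A control probe sets, which read RNA added in known amount before labelling, was 8.27, 8.26 and 8.32 in the left ventricles, 7.52 and 7.60 in WT_RV replicates 1 and 2, and 8.35 in WT_RV replicate 3. Probe sets for 18S rRNA grouped the arrays in the same way, with 12.15 to 12.60 in the left ventricles, 13.07 and 13.11 in WT_RV replicates 1 and 2, and 12.30 in WT_RV replicate 3. The poly-A level of right minus left was -0.46 (exact permutation p = 0.4, two-sided, 3 against 3 arrays, which cannot give a p below 0.1). Across all genes, the median absolute distance from the left ventricle mean was 0.153 and 0.157 for WT_RV replicates 1 and 2. It was 0.127 for WT_RV replicate 3, which lies within the 0.11, 0.115 and 0.145 of the left ventricles. Each left ventricle was measured from the mean of the other left ventricles, so the references differ. Pearson's r of WT_RV replicate 3 across genes was 0.995, 0.994 and 0.996 with the left ventricles and 0.993 and 0.994 with WT_RV replicates 1 and 2, while these last correlated at 0.997. Control level and chamber therefore move together in WT_RV replicates 1 and 2 and not in WT_RV replicate 3. The part of the control level in the results was not tested. Beside the called genes named and most list medians stand the difference of WT_RV replicates 1 and 2 from the left ventricle mean, called the difference without replicate 3, and that of WT_RV replicate 3, called the difference in replicate 3 alone. A test on it takes its error from the other groups, on the assumption that a lone right ventricle varies as they do.

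**Figure D1:**
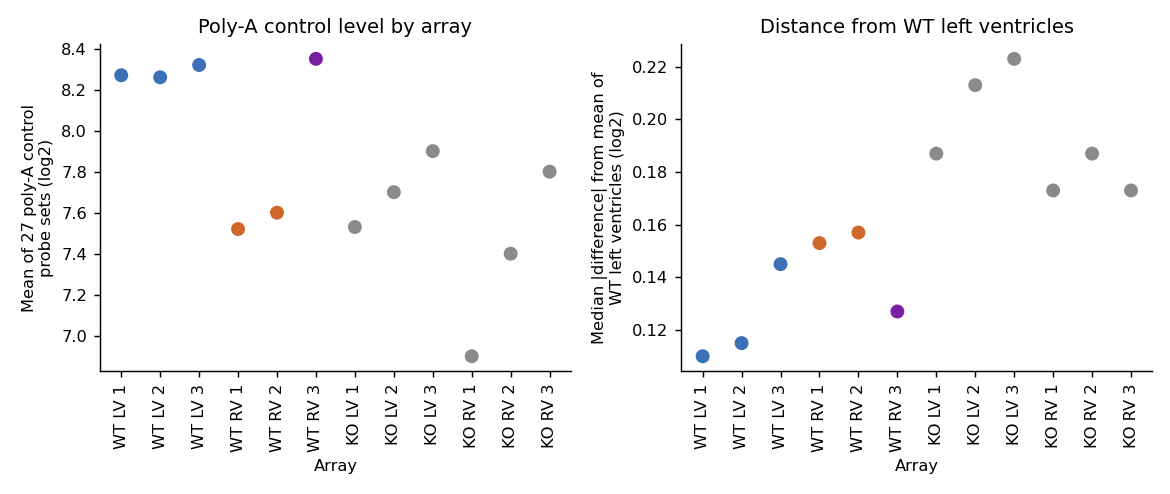
The left panel plots the mean of the 27 poly-A control probe sets (log2) and the right panel the median absolute distance from the mean of the 3 WT left ventricles over all genes (log2), with a point for each of the 12 arrays (blue, WT_LV; orange, WT_RV replicates 1 and 2; purple, WT_RV replicate 3; grey, KO). For a WT_LV array the distance is taken from the mean of the other left ventricles. WT_RV replicate 3, at 8.35, lies with the left ventricles in its controls, while WT_RV replicates 1 and 2 lie at 7.52 and 7.60.

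Of 18194 genes, 179 differed between the ventricles (limma, Benjamini-Hochberg adjusted p under 0.05), which is 0.984% of genes. Of these, 139 (0.764% of genes) were higher in the right ventricle and 40 (0.22%) were lower. In bulk tissue, a lower value from fewer cells of a type and from less RNA per cell cannot be told apart. Most differences were small: those of the higher genes ran from 0.39 to 3.75 with a median of 0.68, and those of the lower genes from -0.38 to -2.21 with a median of -0.62. Only 31 called genes (0.17% of genes) differed by at least 1, 25 of them higher (0.137%) and 6 lower (0.033%). The groups did not overlap for all 179 called genes, against 15.7% of all genes tested.

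The number of calls rested heavily on WT_RV replicate 3. Without it, 1734 genes (9.53%) were called, 1169 higher and 565 lower, and these included all 179. Replicate 3 alone against the left ventricles gave 29 calls (0.159%), 16 higher and 13 lower, of which 20 were among the 179. Since the groups of the 179 genes do not overlap, replicate 3 has the same direction in each of them by construction. Its difference was larger than that over the 3 right ventricles in 44 of them. The 20 genes called in both ways were Dcpp1, Wif1, Acta1, Dio2, Ddc, Pcsk6, Tnni2, Slitrk5, Sema3c and Cystm1, higher in the right ventricle, and Gtsf1, Igfbp2, Cdo1, Chn2, Dclk3, Nrn1, E030024N20Rik, Fig4, Nppa and Cxcl12, lower there. With each of the 6 wild-type arrays left out in turn, 52 of the 179 were called every time, 39 higher and 13 lower, and the count of all calls ran from 62 without WT_RV replicate 1 to 1734 without WT_RV replicate 3. It was 65 without WT_LV replicate 2, 69 without WT_RV replicate 2, 88 without WT_LV replicate 1 and 375 without WT_LV replicate 3.

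**Figure D2:**
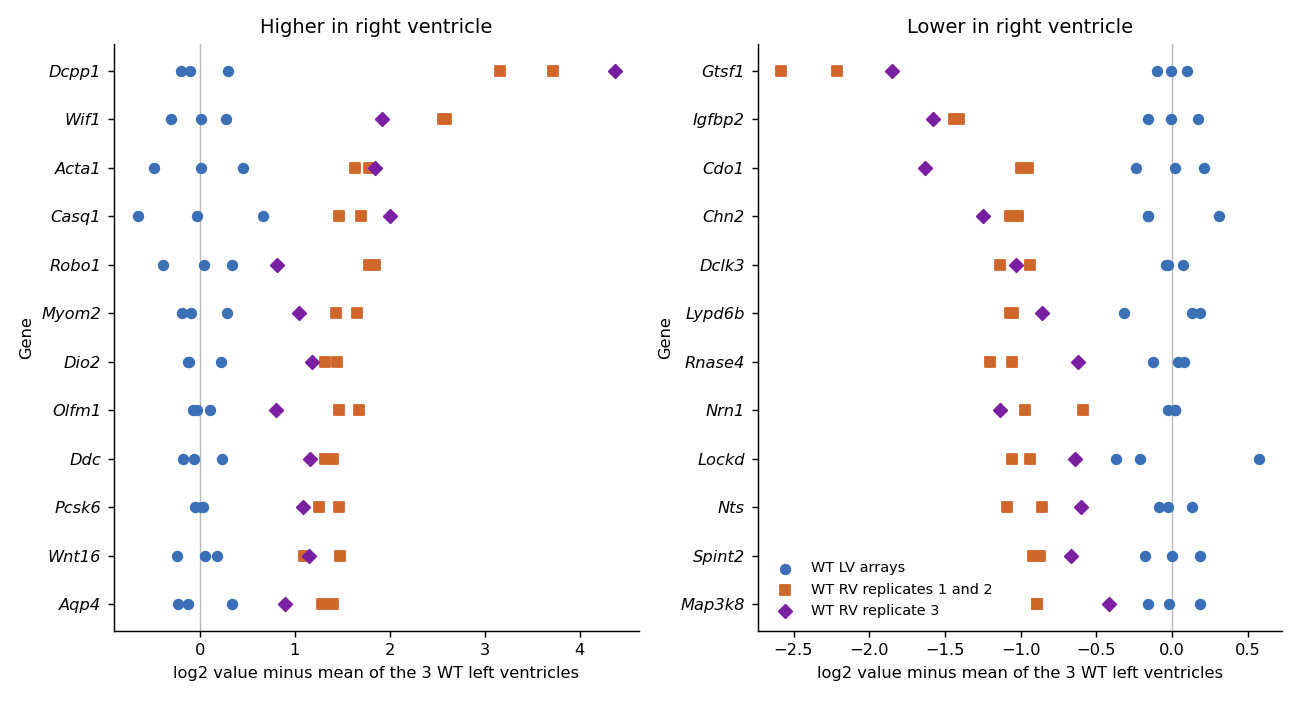
Each point is an array's log2 value minus the mean of the 3 WT left ventricles, for the 12 largest rises (left panel) and the 12 largest falls (right panel) among called genes with a full gene symbol (blue circles, WT_LV; orange squares, WT_RV replicates 1 and 2; purple diamonds, WT_RV replicate 3). In each gene the right and left ventricles are separate, and among the right ventricles WT_RV replicate 3 is the nearest to the left ones in 15 of the 24 genes, among them Wif1, Robo1 and Gtsf1, and the farthest from them in 7, among them Dcpp1, Acta1 and Cdo1.

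Among the genes higher in the right ventricle, Wif1 had the largest difference that was also present in the KO embryos. Wif1 encodes a secreted protein that binds Wnt ligands and keeps them from their receptors. Its values were 4.75, 4.44 and 5.02 in the left ventricles and 7.30, 7.33 and 6.66 in the right. The difference was 2.36 ± 0.19 (SE, adjusted p = 3.53e-05), or 5.13-fold, with 2.58 without replicate 3 and 1.92 in replicate 3 alone. The left values lay below the median of all values and the right ones above it. The Wnt ligand Wnt16 also rose, from 5.33, 5.03 and 5.45 to 6.75, 6.37 and 6.42, a difference of 1.24 ± 0.16 (SE, adjusted p = 0.00142), with 1.29 without replicate 3 and 1.15 in replicate 3 alone. Of the 41 measured members of a list of Wnt ligands, receptors, antagonists and targets, which does not hold Wnt16, Wif1 was the single call (2.44%, against 0.984% of all genes). The median difference of the list was 0.11, against 0.05 for all genes, with 0.20 without replicate 3 and 0.04 in replicate 3 alone.

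The next group of right-sided genes encodes proteins of striated muscle, several of them isoforms better known from skeletal muscle. Acta1, skeletal muscle alpha-actin, which the fetal heart makes beside cardiac actin, had values of 9.89, 9.39 and 10.33 in the left ventricles and 11.65, 11.51 and 11.72 in the right. The difference of 1.76 ± 0.18 (SE, adjusted p = 0.000367) corresponded to 3.38-fold, and it was 1.71 without replicate 3 and 1.85 in replicate 3 alone. The right ventricles lay close together, while the left ones were spread over nearly 1 unit. Cardiac actin, Actc1, lay between 14.83 and 14.99 in all 6 arrays and was not called (difference 0.07 ± 0.07, SE, adjusted p = 0.658). That level is near 15.19, the highest value on any array, so a difference in Actc1 may not be measurable here.

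The promoter of Acta1 is shown because its proximal elements, bound by SRF and TEAD factors, are textbook examples of muscle promoter sites. The 250 bases before the start of the gene (RefSeq, GRCm38.p6, chr8:123894776-123895025, minus strand) are printed with capitals for a match to the CArG box, 73 to 64 bases before the start, and for a match to the MCAT element CATTCCT, 46 to 40 bases before it.
Acta1: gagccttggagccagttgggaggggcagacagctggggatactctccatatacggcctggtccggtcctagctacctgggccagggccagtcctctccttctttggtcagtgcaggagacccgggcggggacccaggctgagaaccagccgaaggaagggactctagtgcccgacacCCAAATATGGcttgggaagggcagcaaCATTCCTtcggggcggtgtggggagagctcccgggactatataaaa
Such matches are a description of the letters and not of binding.

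Genes of calcium handling were also called. Casq1, the calcium buffer of the sarcoplasmic reticulum of fast skeletal muscle, had values of 8.14, 7.52 and 8.84 in the left ventricles and 9.87, 9.64 and 10.17 in the right. The difference was 1.73 ± 0.28 (SE, adjusted p = 0.00869), with 1.59 without replicate 3 and 2.00 in replicate 3 alone, while its cardiac counterpart Casq2 differed by 0.11 and was not called. Of 30 measured genes for calcium handling and ion channels, 3 were called and all were higher (10%, against 0.764% of all genes): Casq1, the calcium channel subunit Cacna2d2 (1.17 ± 0.26, SE) and the inward rectifier potassium channel Kcnj12 (0.88 ± 0.12, SE, with 0.95 without replicate 3 and 0.73 in replicate 3 alone). The median of the list was 0.11, with 0.21 without replicate 3 and -0.04 in replicate 3 alone. Cacna2d2 depended on the array that stands apart, with 1.58 without replicate 3 and 0.35 in replicate 3 alone. Its right ventricle values were 10.11, 10.24 and 8.94 against 8.81, 8.51 and 8.45 on the left, and its adjusted p was 0.048. Sarcolipin (Sln), an inhibitor of the calcium pump, was 6.50, 5.28 and 5.75 on the left and 6.95, 6.57 and 8.06 on the right, without overlap but with too much spread for a call (1.35 ± 0.38, SE, adjusted p = 0.113). It differed by 0.92 without replicate 3 and by 2.22 in replicate 3 alone.

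Of 35 measured sarcomere genes, 4 were called, all higher in the right ventricle (11.4%, against 0.764% of all genes), and for 40% the groups did not overlap, against 15.7% of all genes. The median difference was 0.19, with 0.25 without replicate 3 and 0.06 in replicate 3 alone. They were Myom2, a protein of the M-band, Tnni2, the fast skeletal troponin I, Mybphl, a myosin-binding protein, and Mybpc2, the fast skeletal myosin-binding protein C, which is named here after its value was seen. Myom2 had values of 8.46, 8.08 and 7.98 on the left and 9.83, 9.60 and 9.22 on the right, a difference of 1.38 ± 0.19 (SE, adjusted p = 0.00274), with 1.54 without replicate 3 and 1.05 in replicate 3 alone. Tnni2 had values of 8.36, 8.05 and 8.23 on the left and 8.97, 9.16 and 9.98 on the right, a difference of 1.16 ± 0.23 (SE, adjusted p = 0.0294), with 0.85 without replicate 3 and 1.77 in replicate 3 alone. Mybphl differed by 0.89 ± 0.16 and Mybpc2 by 0.78 ± 0.15 (SE), with 1.03 and 0.74 without replicate 3 and 0.60 and 0.85 in replicate 3 alone. Of the main cardiac isoforms, Myh7 (0.22), Tnnt2 (0.19), Mybpc3 (0.26) and Myh6, the alpha myosin heavy chain (0.62 ± 0.19, SE, adjusted p = 0.137), were not called. Without replicate 3, control level and chamber moved together, and 9.53% of all genes were called. Among these were Myh7, Mybpc3 and Myh6, at 0.33, 0.33 and 0.85 (adjusted p = 0.0344, 0.0248 and 0.0118). Myl2 differed by 0.00, but it and Myh7 lie so near the highest value on the arrays that a difference may not be measurable.

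Of 20 measured skeletal muscle genes, 2 were called (10%, against 0.984% of all genes), Tnni2 and muscle creatine kinase Ckm (0.80 ± 0.17, SE, adjusted p = 0.0377). The differences of 9 were above 0, against 11112 of all 18194 genes. The median was -0.02, with 0.00 without replicate 3 and -0.01 in replicate 3 alone. Ckm differed by 0.75 without replicate 3 and by 0.89 in replicate 3 alone. Myh3, the embryonic skeletal myosin, was 8.75, 7.70 and 6.54 on the left and 6.62, 7.08 and 6.67 on the right. Mylpf differed by -0.60 ± 0.27 and Tnnc2 by -0.65 ± 0.36 (SE), both uncalled and both highest in WT_LV replicate 1. The mean level of the skeletal muscle list was 5.60 to 6.05 in the left ventricles and 5.67 to 5.83 in the right, and 11 of its members lay below the median of all values. Outside the lists, and named after their values were seen, Asb2, a ubiquitin ligase subunit of muscle (0.95 ± 0.13, SE), Perm1, a regulator of muscle metabolism (0.88 ± 0.15, SE), and the ryanodine receptor Ryr3 (0.87 ± 0.17, SE) were also called higher. They differed by 1.04, 0.82 and 1.01 without replicate 3 and by 0.76, 1.01 and 0.60 in replicate 3 alone. Dimmer probe sets, with means under the median of all values, differed by -0.12 for Perm1 and by 0.21 and 0.12 for Ryr3.

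**Figure D3:**
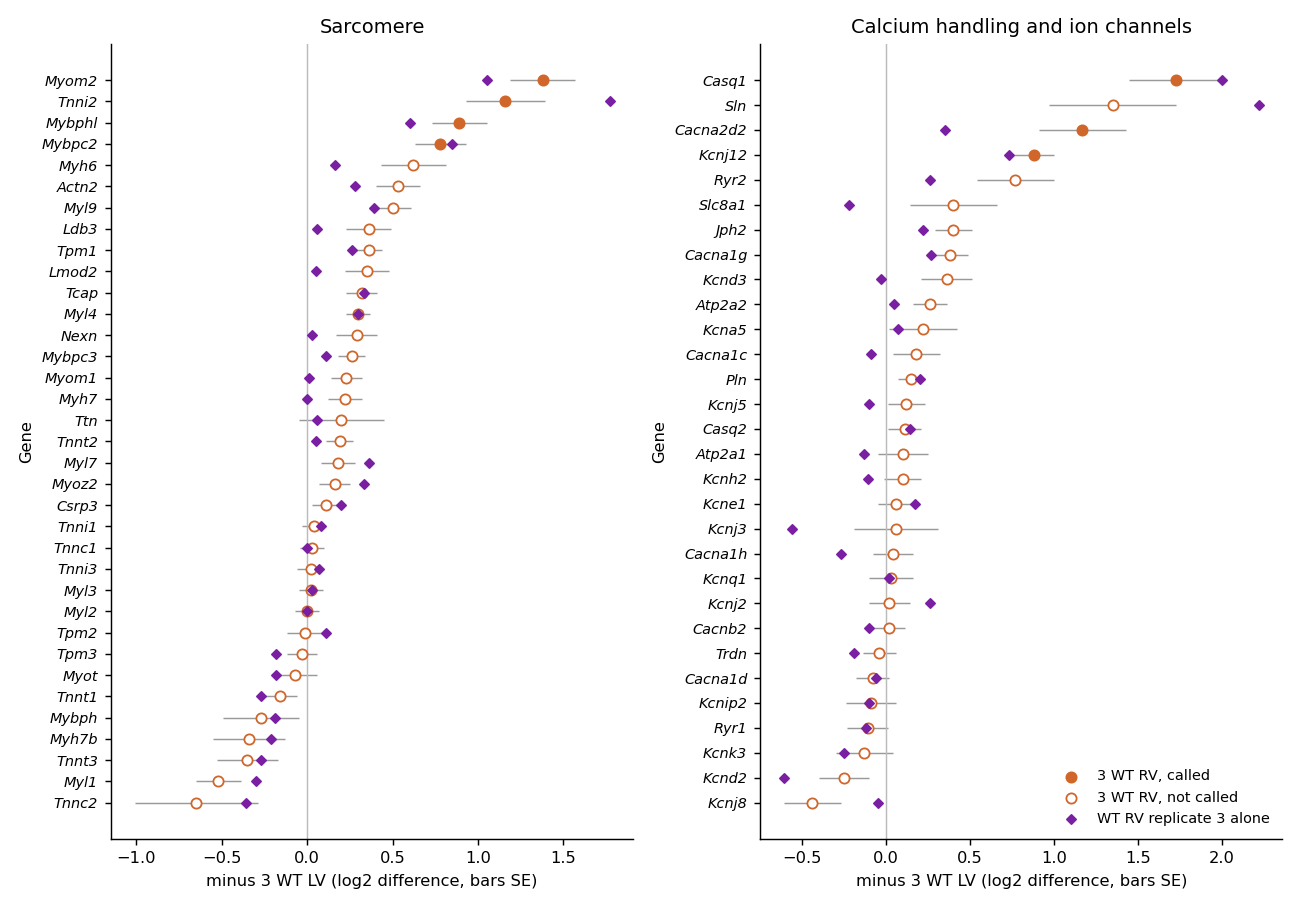
The difference right minus left ventricle in WT (log2, circles, bars SE; filled where called) is plotted for the 35 sarcomere genes and the 30 genes for calcium handling and ion channels, with the difference of WT_RV replicate 3 alone as purple diamonds. The 4 called sarcomere genes and the 3 called calcium and channel genes all lie on the right ventricular side.

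Guidance molecules, which steer growing axons and also migrating cells of the heart, held 2 of the called rises. Sema3c, a semaphorin needed for septation of the outflow tract, had values of 7.30, 7.30 and 7.56 in the left ventricles and 8.36, 8.16 and 8.35 in the right. The difference was 0.90 ± 0.10 (SE, adjusted p = 0.000991), with 0.87 without replicate 3 and 0.96 in replicate 3 alone. Robo1, a receptor for Slit proteins, had values of 5.98, 5.54 and 6.27 on the left and 7.71, 7.77 and 6.74 on the right, a difference of 1.48 ± 0.24 (SE, adjusted p = 0.00898), with 1.81 without replicate 3 and 0.81 in replicate 3 alone. Of 36 measured guidance ligands and receptors these 2 were called (5.56%, against 0.984% of all genes), and for 16.7% the groups did not overlap, against 15.7% of all genes. The median difference was 0.11, with 0.29 without replicate 3 and 0.00 in replicate 3 alone. A few further called genes were picked after their values were seen and stand for no list: the adhesion molecules Slitrk5 (1.06 ± 0.11, SE) and Ntm (0.97 ± 0.13, SE), the GABA receptor subunit Gabra4 (1.10 ± 0.13, SE) and the glutamate receptor subunits Gria1 (0.94 ± 0.20, SE) and Gria2 (0.97 ± 0.16, SE). In that order they differed by 1.19, 1.11, 1.10, 1.13 and 1.06 without replicate 3 and by 0.80, 0.70, 1.10, 0.57 and 0.79 in replicate 3 alone. The adjusted p of Gria1 was 0.0388. The list of neural crest and cardiac nerves had 0 calls among its 21 genes, with 4 at an unadjusted limma p under 0.05. Another probe set of Gria2 differed by 0.05, and the second one of Gabra4 by 0.55.

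The other large rises were of genes with varied roles. Ddc, the decarboxylase that makes dopamine and serotonin from their precursors, had values of 11.14, 10.84 and 10.73 on the left and 12.22, 12.30 and 12.06 on the right, a difference of 1.29 ± 0.11 (SE, adjusted p = 7.56e-05). Dio2, the deiodinase that activates thyroid hormone within cells, had values of 5.94, 5.95 and 6.29 on the left and 7.38, 7.51 and 7.24 on the right, a difference of 1.32 ± 0.11 (SE, adjusted p = 6.77e-05). The differences of Ddc and Dio2 were 1.36 and 1.38 without replicate 3 and 1.16 and 1.18 in replicate 3 alone. Maob, which degrades amines and was named after its value was seen, rose by 1.13 ± 0.14 (SE), with 1.19 without replicate 3 and 1.03 in replicate 3 alone. Pcsk6, a protease that activates precursors of the TGF-beta family, had values of 6.32, 6.41 and 6.39 on the left and 7.84, 7.63 and 7.46 on the right, and differed by 1.27 ± 0.12 (SE, adjusted p = 8.8e-05), with 1.36 without replicate 3 and 1.09 in replicate 3 alone. The water channel Aqp4 (1.20 ± 0.15, SE), the secreted glycoprotein Olfm1 (1.31 ± 0.18, SE) and the gap junction gene Gja3 (0.90 ± 0.15, SE, named after its value was seen) rose as well. They differed by 1.35, 1.57 and 0.90 without replicate 3 and by 0.90, 0.80 and 0.89 in replicate 3 alone. Olfm1 was lower in WT_RV replicate 3, at 6.97 against 7.64 and 7.85 in the other right ventricles.

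The largest difference of all was that of Dcpp1, which encodes a secreted protein known from salivary glands. Its values were 5.23, 5.33 and 5.73 in the left ventricles and 8.59, 9.15 and 9.80 in the right, a difference of 3.75 ± 0.23 (SE, adjusted p = 3.78e-06), or 13.5-fold. It was 3.44 without replicate 3 and 4.37 in replicate 3 alone. Dcpp1 has near-identical family members, so the probe set may read more than this gene.

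Among the genes higher in the left ventricle, Gtsf1 led. Gtsf1 is known as a factor of the piRNA pathway in germ cells. Its values were 12.26, 12.35 and 12.46 in the left ventricles and 9.78, 10.15 and 10.51 in the right, a difference of -2.21 ± 0.17 (SE, adjusted p = 3.53e-05), or 4.63-fold. It was -2.39 without replicate 3 and -1.85 in replicate 3 alone. Igfbp2, which binds insulin-like growth factors, had values of 9.20, 9.35 and 9.53 on the left and 7.92, 7.95 and 7.78 on the right, a difference of -1.48 ± 0.12 (SE, adjusted p = 4.52e-05), with -1.42 without replicate 3 and -1.58 in replicate 3 alone. It was the single call of 34 genes for FGF, neuregulin and IGF signalling (2.94%, against 0.984% of all genes). Of the 34, 28 had a difference above 0, against 11112 of all 18194 genes. The median of that list was 0.17, with 0.25 without replicate 3 and 0.11 in replicate 3 alone.

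Further left-sided genes were Cdo1, which oxidises cysteine (-1.19 ± 0.18, SE), Chn2, a GTPase-activating protein for Rac (-1.11 ± 0.13, SE), and the kinase Dclk3 (-1.04 ± 0.10, SE). They differed by -0.97, -1.04 and -1.04 without replicate 3 and by -1.63, -1.25 and -1.03 in replicate 3 alone. Cdo1 had values of 8.25, 8.44 and 7.99 on the left and 7.28, 7.23 and 6.60 on the right, so that WT_RV replicate 3 was the lowest of the 6. The remaining ones of the 12 largest falls ran from -0.99 for Lypd6b to -0.73 for the kinase Map3k8. They included Nrn1, a neurite growth factor (-0.90 ± 0.14, SE), Nts, the peptide neurotensin (-0.85 ± 0.13, SE), the protease inhibitor Spint2 (-0.82 ± 0.12, SE), Rnase4, a secreted ribonuclease (-0.96 ± 0.16, SE), and the noncoding RNA Lockd (-0.88 ± 0.19, SE). Lockd, at an adjusted p of 0.0497, and Map3k8, at 0.0361, were called least firmly, and without replicate 3 they fell by 1.00 and fell by 0.89, with -0.64 and -0.42 in replicate 3 alone. For Lypd6b, Nrn1, Nts, Spint2 and Rnase4 the differences were -1.06, -0.78, -0.98, -0.90 and -1.13 without replicate 3 and -0.86, -1.14, -0.60, -0.67 and -0.62 in replicate 3 alone.

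Nppa, the classical left ventricle gene of this age, had values of 14.27, 14.14 and 14.23 in the left ventricles and 13.86, 13.69 and 13.32 in the right. The groups did not overlap, and the difference of -0.59 ± 0.13 (SE) lay just past the threshold at an adjusted p of 0.0499. The difference was -0.44 without replicate 3 and -0.89 in replicate 3 alone. Nppa was called in 8 of the 19 other settings tried. Nppb, its neighbour in the genome and the gene of B-type natriuretic peptide, was 12.80, 12.75 and 12.71 on the left and 12.50, 12.12 and 12.73 on the right, and was not called (-0.30 ± 0.15, SE, adjusted p = 0.332), with -0.44 without replicate 3 and -0.02 in replicate 3 alone.

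The Nppa promoter is shown because it is a textbook target of T-box factors such as Tbx5. The 250 bases before its start (RefSeq, GRCm38.p6, chr4:148000472-148000721, plus strand) hold, in capitals, a match to the T-box motif GGTGTGA on the opposite strand, which therefore reads TCACACC, 250 to 244 bases before the start.
Nppa: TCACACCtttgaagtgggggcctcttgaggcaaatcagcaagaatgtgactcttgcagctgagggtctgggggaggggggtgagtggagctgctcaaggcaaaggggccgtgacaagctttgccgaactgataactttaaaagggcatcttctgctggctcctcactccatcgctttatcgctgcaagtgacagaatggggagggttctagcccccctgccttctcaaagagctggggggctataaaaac
Over all genes with a RefSeq promoter (14453 of 18194), 3.69% held the T-box motif within 250 bases before a start on either strand, as did 4.95% of the 101 genes called higher and 3.85% of the 26 called lower that could be matched. The MCAT motif was held by 4.78% of all genes, 9.9% of those called higher and 0 of those called lower, and the CArG box by 1.43%, 3.96% and 3.85%. For the GATA motif AGATAA the shares were 8.79%, 12.9% and 11.5%, for the MEF2 motif 3.54%, 5.94% and 3.85%, and for the E-box CANNTG 65.2%, 66.3% and 76.9%. A gene with several starts counted if any held the motif, and there were 18110 starts for all genes, 147 for the higher and 40 for the lower. Counted by start, MCAT was held by 4.02% of all and 6.8% of the higher, and GATA by 7.4% and 8.84%. The E-box was held by 61.3% of all starts and 65.0% of the lower. These shares are descriptions, and in the smaller groups each rests on few genes: the MCAT share of the higher genes was 10 genes and the CArG share 4.

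The transcription factors Hand1, Hand2 and Tbx5 were not called. Hand1, the left ventricle factor, was 7.24, 6.76 and 7.19 on the left and 7.09, 7.37 and 7.03 on the right, with overlap and no call (0.10 ± 0.14, SE, adjusted p = 0.755). Hand2, its right ventricular counterpart, was 10.67, 10.81 and 10.78 on the left and 10.98, 11.08 and 11.00 on the right. These values did not overlap, yet the difference of 0.27 ± 0.08 (SE) did not pass the test (adjusted p = 0.141). Tbx5 was 9.28, 9.33 and 9.14 on the left and 8.78, 8.75 and 8.74 on the right, again without overlap, and missed the threshold with -0.49 ± 0.11 (SE, adjusted p = 0.0564). Hand1, Hand2 and Tbx5 differed by 0.17, 0.28 and -0.49 without replicate 3 and by -0.03, 0.25 and -0.51 in replicate 3 alone. Tbx5 was called without replicate 3 (adjusted p = 0.0328), as were 9.53% of all genes, with control level and chamber moving together.

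Of the 14 genes listed for the left ventricle, 4 were called: Gtsf1 and Nppa were lower in the right ventricle, and Wif1 and Pcsk6, which the list also held, were higher. The list was written with earlier results in view, and these members went against its name. Among the uncalled members, Gja5, a connexin of trabecular myocardium and the conduction system (-0.38 ± 0.21, SE), did not overlap between the ventricles, as 15.7% of all genes do not. The transcriptional regulator Cited1 (-0.22 ± 0.16, SE), Irx3 (0.11), Slit2 (0.24), Slit3 (-0.05), Fgf12 (-0.12) and Lbh (0.35 ± 0.11, SE, adjusted p = 0.141) overlapped. Fgf12 and Gja5 had means under the median of all values. The share called, 28.6%, is to be read beside the 0.984% of all genes and beside the fact that its leading members were already known to differ here. The median of the list was -0.08, with -0.10 without replicate 3 and -0.03 in replicate 3 alone.

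Of the 22 measured genes listed for the right ventricle and outflow tract, 20 had a difference above 0, against 11112 of all 18194 genes, but only 3 were called (13.6%, against 0.984% of all genes). Sema3c and Foxc1, a forkhead factor of the outflow tract and its mesenchyme (0.61 ± 0.11, SE, adjusted p = 0.0191), were higher. Foxc1 differed by 0.69 without replicate 3 and by 0.44 in replicate 3 alone. The chemokine Cxcl12 was lower, with 11.14, 11.02 and 11.07 on the left and 10.72, 10.68 and 10.32 on the right (-0.50 ± 0.11, SE, adjusted p = 0.0402). A second probe set differed by -0.85, and another, under the median of all values, by 0.14. The difference of Cxcl12 was -0.38 without replicate 3 and -0.76 in replicate 3 alone. Foxc2, Hand2 and Wnt11 did not overlap between the ventricles and were not called, at 0.58, 0.27 and 0.23. The groups did not overlap for 6 of the 22 genes (27.3%), against 15.7% of all genes. Isl1 (0.16), Fgf8 (0.01), Fgf10 (0.25), Tbx1 (0.06), Tbx2 (0.08), Tbx3 (-0.17), Irx1 (0.08), Irx2 (0.25), Mef2c (0.04), Gata6 (0.21), Bmp4 (0.03), Nrp2 (0.40), Plxna2 (0.03), Rspo3 (0.13), Cck (0.06) and Tdgf1 (0.00) overlapped. Of the 22 genes, 8 lay below the median of all values in all 6 wild-type arrays. Isl1, Fgf8, Fgf10, Tbx1, Tbx2, Tbx3, Cck and Tdgf1 had means under it, where signal over background limits what a difference can show. In Plxna2 and Mef2c the sign turned in replicate 3 alone, at -0.49 and -0.34. Foxc2 and Nrp2 were called without replicate 3, at 0.70 and 0.61 (adjusted p = 0.0219 and 0.0115), as were 9.53% of all genes. The median of the list was 0.11, with 0.15 without replicate 3 and 0.13 in replicate 3 alone.

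**Figure D4:**
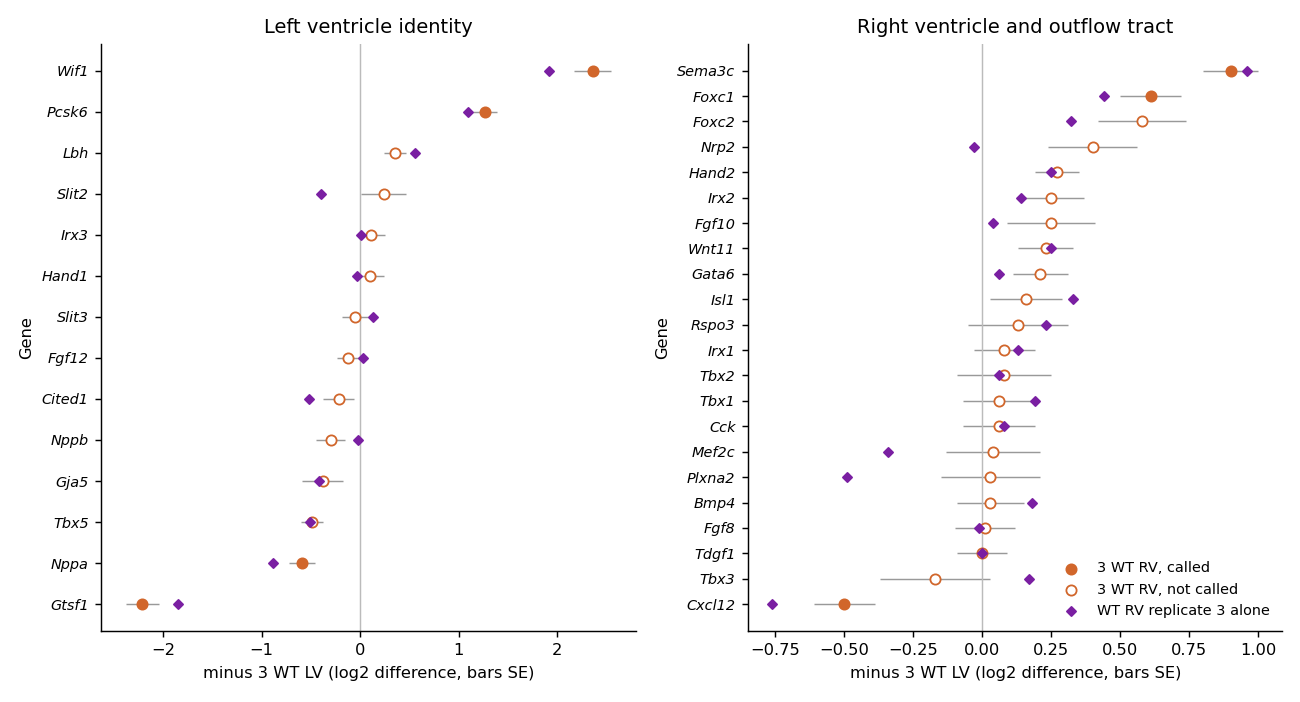
The difference right minus left ventricle in WT (log2, circles, bars SE; filled where called) is plotted for the 14 genes listed for the left ventricle and the 22 measured for the right ventricle and outflow tract, with WT_RV replicate 3 alone as purple diamonds. Gtsf1 at -2.21 and Wif1 at 2.36 lie far out on opposite sides of the left ventricle list, while Hand1 and Hand2 lie at 0.10 and 0.27.

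Of 31 measured cardiac transcription factors, Irx4, a ventricular factor, was higher (0.47 ± 0.10, SE, adjusted p = 0.0499) and Tbx18, a factor of the epicardium and sinus horns, was lower (-0.43 ± 0.08, SE, adjusted p = 0.0257), which is 6.45% called against 0.984% of all genes. They differed by 0.54 and -0.45 without replicate 3 and by 0.32 and -0.40 in replicate 3 alone. Irx4 was called in 9 of the 19 other settings. Meis2, a homeobox cofactor named after its value was seen, was 9.33, 9.18 and 9.22 on the left and 9.95, 9.87 and 9.71 on the right (0.60 ± 0.08, SE, adjusted p = 0.00336), with 0.67 without replicate 3 and 0.47 in replicate 3 alone. Of its other probe sets 1 differed by -0.60, with a large error, and the others by 0.56 and 0.71.

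Among 38 measured genes of BMP and TGF-beta signalling 4 were called (10.5%, against 0.984% of all genes). The median was 0.12, with 0.19 without replicate 3 and 0.04 in replicate 3 alone. The ligands Bmp2 (0.70 ± 0.12, SE, adjusted p = 0.0132) and Bmp5 (0.78 ± 0.13, SE, adjusted p = 0.0091) and the extracellular modulator Bmper (0.87 ± 0.19, SE, adjusted p = 0.0499) were higher in the right ventricle. The antagonist Chrdl1 was lower (-0.54 ± 0.09, SE, adjusted p = 0.0122), at values under the median of all values, and 3 other probe sets of Chrdl1 differed by 0.14, -0.26 and 0.10. The 4 genes, in the order given, differed by 0.83, 0.91, 0.82 and -0.58 without replicate 3 and by 0.44, 0.51, 0.96 and -0.47 in replicate 3 alone. Bmp2 ran from 6.44 to 6.71 on the left and from 6.99 to 7.44 on the right, and Bmper was called in 8 of the 19 other settings. Outside that list, Inhbb, an activin subunit named after its value was seen, rose by 0.86 ± 0.09 (SE), with 0.90 without replicate 3 and 0.79 in replicate 3 alone, while another of its probe sets differed by 0.07. The Notch (24 genes) and retinoic acid (17) lists had 0 calls, with medians of 0.08 and 0.09, 0.10 and 0.06 without replicate 3, and 0.02 and 0.17 in replicate 3 alone; limma's unadjusted p was under 0.05 for 7 and 1 of their genes, against 3105 of all 18194.

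Of the lists for other cell types, few held a called gene. Vwf, the clotting factor of vessel endothelium, was higher in the right ventricle, at 6.20, 5.81 and 6.27 against 7.32, 7.41 and 6.67 (1.04 ± 0.17, SE, adjusted p = 0.0101), and was the single call of 32 endothelial genes (3.12%, against 0.984% of all genes). Vwf differed by 1.27 without replicate 3 and by 0.58 in replicate 3 alone. The median of that list was 0.20 over the 3 right ventricles, 0.28 without replicate 3 and 0.02 in replicate 3 alone. The 13 endocardial genes had 0 calls (6 at an unadjusted limma p under 0.05) and a median of 0.23, with 0.37 without replicate 3 and 0.03 in replicate 3 alone. Adamts9, a matrix protease (0.64 ± 0.13, SE, adjusted p = 0.0377), was the single call of 38 matrix genes (2.63%, against 0.984% of all genes), and its other probe sets went the other way, with -0.67 and -0.25. It differed by 0.82 without replicate 3 and by 0.27 in replicate 3 alone.

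Of 17 epicardial genes, Tbx18 was called lower in the right ventricle (5.88%, against 0.984% of all genes). A difference below 0 was seen in 15, while 11112 of all 18194 genes had one above 0. The median was -0.39, with -0.52 without replicate 3 and 0.01 in replicate 3 alone. The mean level of the list was 8.17, 8.64 and 8.66 in the left ventricles and 7.93, 8.17 and 8.53 in the right, with overlap. Wt1, Upk3b and Aldh1a2 differed by -0.27, -0.26 and -0.39 without a call.

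Among 17 genes of atrial cardiomyocytes, Mybphl and Clu, a secreted chaperone (0.78 ± 0.15, SE, adjusted p = 0.0275), were called higher and Nppa lower (17.6%, against 0.984% of all genes). Clu differed by 0.99 without replicate 3 and by 0.35 in replicate 3 alone. The defining atrial genes Myl7 and Myl4 differed by 0.18 and 0.30, and Nr2f2 by 0.50, all without a call. Sln, also an atrial marker, differed by 1.35 and was not called either. Of the 17 genes, 15 had a difference above 0, against 11112 of all 18194 genes. The groups did not overlap for 52.9%, against 15.7% of all genes. The median of the list was 0.19, with 0.23 without replicate 3 and 0.18 in replicate 3 alone. The mean level of the atrial list was 8.80 to 8.97 on the left and 9.04 to 9.23 on the right, and the part of atrial tissue in the results was not tested. The trabecular list (14 genes) had Ankrd1, a stress-responsive muscle protein, higher (0.78 ± 0.16, SE, adjusted p = 0.0337, with 1.00 without replicate 3 and 0.34 in replicate 3 alone) and Nppa lower (14.3% called, against 0.984% of all genes). The lists for compact myocardium (11) and the conduction system (13) had 0 calls. At an unadjusted limma p under 0.05 they had 5 and 1 genes, against 3105 of all 18194. The 17 fetal liver genes had 0 calls (1 at an unadjusted limma p under 0.05) and a median of 0.41, with 0.73 without replicate 3 and -0.14 in replicate 3 alone. Alb was 9.09, 10.57 and 8.33 on the left and 11.57, 8.72 and 9.19 on the right. The lists for leukocytes, erythroid cells, valve mesenchyme, pericytes, and lung, thymus and foregut had 0 calls each, with 1 to 4 genes at an unadjusted limma p under 0.05.

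Of 45 measured genes of oxidative phosphorylation, Cox6a2, the muscle isoform of a cytochrome oxidase subunit, was the single call (2.22%, against 0.984% of all genes). It was 12.49, 12.48 and 12.57 on the left and 12.90, 12.85 and 13.03 on the right (0.41 ± 0.08, SE, adjusted p = 0.026), with 0.36 without replicate 3 and 0.52 in replicate 3 alone. Of 29 genes of fatty acid uptake and oxidation, Acadvl, a mitochondrial acyl-CoA dehydrogenase (0.46 ± 0.09, SE, adjusted p = 0.0207), and Pdk4, which holds back glucose oxidation (0.55 ± 0.11, SE, adjusted p = 0.0382), were called higher (6.9%, against 0.764% of all genes), and 12 of the list had an unadjusted limma p under 0.05. Acadvl and Pdk4 differed by 0.50 and 0.53 without replicate 3 and by 0.38 and 0.57 in replicate 3 alone. The median of the fatty acid list was 0.16, with 0.18 without replicate 3 and 0.17 in replicate 3 alone. The lists for glycolysis and hypoxia, cell cycle and ribosomal proteins had 0 calls, with medians of 0.15, 0.01 and -0.09 and with 11, 7 and 3 genes at an unadjusted limma p under 0.05. Without replicate 3 these medians were 0.18, 0.13 and -0.16, and in replicate 3 alone 0.06, -0.13 and -0.01.

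The Nos3-/- embryos gave the same comparison on arrays that the wild-type comparison did not use, though both took their error from one model. The poly-A control means were 7.53, 7.70 and 7.90 in the KO left ventricles and 6.90, 7.40 and 7.80 in the right. For 18S rRNA they were 12.81, 13.03 and 12.77 on the left and 12.87, 12.69 and 12.05 on the right. The part of the control level in the KO results was not tested. Genotype and strain cannot be told apart there. In the KO embryos 208 genes (1.14% of genes) were called, 100 higher (0.55%) and 108 lower (0.594%). Of the 179 wild-type calls, 164 (91.6%) had the same direction in KO and 61 were called there with the same direction, which is 34.1% of the wild-type list and 29.3% of the KO list, while 0 were called in the opposite direction (0 also at an unadjusted limma p under 0.05). Of all genes, 46.4% had the same direction in both. Of the 139 right-sided genes 42 were called in KO, and of the 40 left-sided genes 19. The median difference of the right-sided genes was 0.68 in WT and 0.36 in KO, and that of the left-sided genes -0.62 and -0.38. The genes were chosen for their wild-type difference, so a smaller value elsewhere is to be read with that choice in mind.

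The leading chamber genes were also called in KO. Wif1 was 4.87, 5.28 and 5.16 in the KO left ventricles and 7.77, 7.60 and 7.97 in the right (difference 2.68). Gtsf1 was 13.16, 12.90 and 13.16 against 10.70, 10.09 and 10.34 (-2.70). Both genes separated the ventricles in all 12 arrays. Acta1 differed by 1.12 in KO, Sema3c by 0.98, Casq1 by 1.61, Myom2 by 1.63, Tnni2 by 2.27 and Nppa by -0.61, and all were called there. Of the 20 genes called in the wild-type embryos both over the 3 right ventricles and in replicate 3 alone, 18 were called in KO with the same direction. Tbx5 (-1.02), Cited1 (-0.83) and Gja5 (-1.32), uncalled in wild-type embryos, were called in KO. Their differences between the genotypes did not pass the interaction test (adjusted p = 0.314 each). Bmp2 (-0.16), Foxc1 (-0.01), Irx4 (-0.02) and Nts (0.18) were called in wild-type embryos and lay near 0 or on the other side in KO. Their interaction did not pass either, with adjusted p-values of 0.211, 0.314, 0.314 and 0.15.

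**Figure D5:**
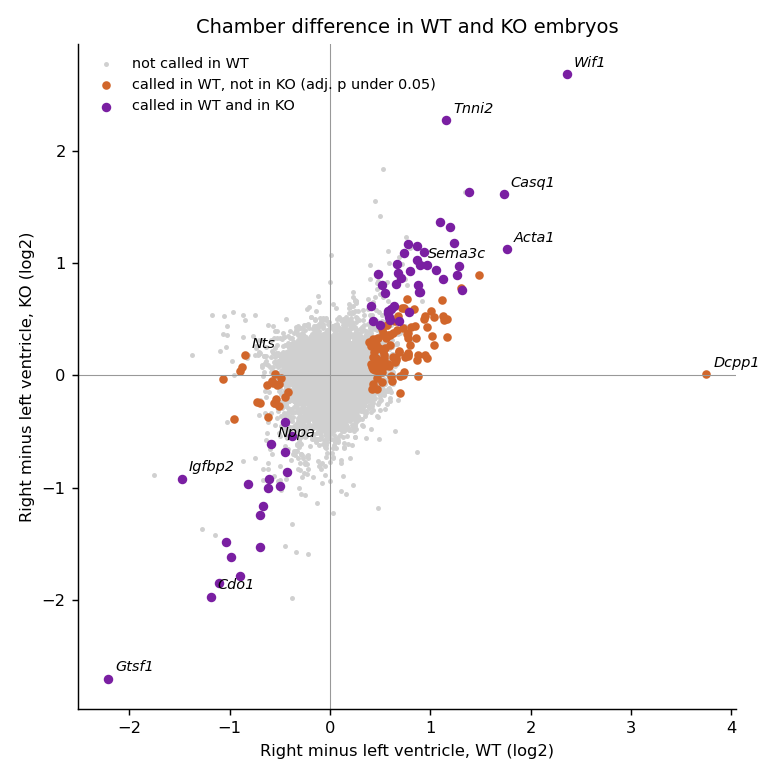
Each point is a gene, with the difference right minus left ventricle in WT on the horizontal axis and in KO on the vertical axis (both log2); grey points were not called in WT, orange ones were called in WT and not in KO, and purple ones were called in both. Wif1 and Gtsf1 lie at opposite ends of the diagonal, and Dcpp1, at 3.75 in WT and 0.01 in KO, lies alone at the far right.

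The test of the difference between the genotypes' chamber differences called 4 of 18194 genes (0.022%). Of the wild-type calls, this was Dcpp1 alone. In the KO embryos Dcpp1 was 3.91, 4.18 and 3.98 in the left ventricles and 4.22, 3.99 and 3.88 in the right, so its chamber difference was 0.01 there and the interaction was 3.74 (adjusted p = 0.00033). Every KO array had a lower Dcpp1 value than every wild-type array. The other 3 genes, Tcf24, Gpnmb and Gfra1, were not called in wild-type embryos and were lower in the right ventricle of KO embryos. Without WT_RV replicate 3 the interaction test called 1309 genes, so the number of genes that set the wild-type comparison apart rests on that array.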

How the data were processed

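The authors deposited log2 values for 45101 probe sets of 12 Affymetrix arrays, summarised with RMA (version not given) from biotin-labelled cRNA of 100 ng total RNA, per the submitters' processing notes and the labels' protocols. RMA gives every array the same distribution, so a change common to most genes may not be seen. Scanner files were not used here; unused per-sample columns numbered 0. A single gene symbol was given for 34958 probe sets, several for 932 and none for 9211, and 34754 matched RefSeq (GRCm38.p6) by gene ID. Each of the 18194 genes was read from its probe set of highest mean over all arrays (9012 had more than 1), with no filter on dim genes. The number of arrays limits the precision.

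limma 3.58.1 (R 4.3.3; lmFit, eBayes) fitted 4 group means over 12 arrays, with Benjamini-Hochberg adjustment over all genes and a threshold of 0.05. Control levels were compared by two-sided exact permutation (scipy 1.17.1). On simulated data for right minus left in WT (18194 genes), 46.3% of changes of 0.5, 94% of changes of 1 and 100% of changes of 2 (log2) were recovered. Of 174 calls, 14 were unchanged genes. The simulated noise was independent between genes and arrays, without an array effect shared by many genes, so these rates may not hold for the real arrays.

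The members and lists were chosen with earlier results of these data known. Named by rule were the 5 markers, the 12 largest called rises and falls without overlap, all measured genes of both identity lists, up to 3 called genes per direction of other lists, and called interaction genes, leaving out predicted genes and clones. Further list members were picked after seeing their values. Alternatives were other normalizations, a filter on dim genes, other variance models, array weights, replicate blocks, only the compared groups, other uses of the probe sets, stricter thresholds, omission of each array, and the arrays of high control level. Promoters of 250 bases came from RefSeq, figures from matplotlib 3.10.9.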

Additional observations from a re-analysis of the deposited data

Results flagged for a closer look

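For 4 genes the chamber difference of the wild-type embryos differed from that of the KO embryos by the interaction test (limma, 18194 genes). Dcpp1 had an interaction of 3.74 (adjusted p = 0.00033), from 3.75 in WT and 0.01 in KO. Tcf24, a basic helix-loop-helix factor, had 1.6 (adjusted p = 0.00784). Its values were 6.04, 6.60 and 6.34 in WT_LV, 6.02, 5.97 and 5.85 in WT_RV, 7.55, 7.62 and 7.94 in KO_LV and 5.81, 5.70 and 5.67 in KO_RV. Only the KO left ventricles stood apart. Gpnmb, a glycoprotein of macrophages and pigment cells, had 1.25 (adjusted p = 0.0208), with chamber differences of 0.03 in WT and -1.23 in KO. Gfra1, a receptor for GDNF, had 1.22 (adjusted p = 0.0332), with 0.16 in WT and -1.06 in KO. At an unadjusted p under 0.05 there were 2537 genes.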

How the results depend on the processing

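The wild-type count of 179 changed to 2212 with array weights, 270 with the replicate number as a random block, 41 from the compared groups alone, 29 in WT_RV replicate 3 alone, 60 at an adjusted p under 0.01 and 31 with a difference of at least 1, and to 62 to 1734 with each array left out. It was 26 without WT_LV replicate 2 and WT_RV replicate 1, the arrays highest in nuclear and in liver RNA, a setting chosen after seeing the data. The KO count of 208 became 684 with array weights, 314 from the compared groups alone, 93 at an adjusted p under 0.01, 43 with a difference of at least 1, and 104 to 134 with each array left out. The interaction count of 4 became 1364 with array weights, 8 with the random block, 2 to 1309 with each array left out, and 2 with the fixed block, the mean of probe sets, every probe set, replicate 3 alone, the 2 arrays left out, or the stricter p. The poly-A difference of -0.46 ran from -0.73 to -0.31 with each array left out.

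Of 91 named genes, 59 were called. Adamts9 alone reversed, to -0.1 with the mean of its probe sets. Genes that kept their call were 59 with array weights, with the random block and without WT_RV replicate 3, 58 with the fixed block, 48 with the mean of probe sets, 27 from the compared groups alone and 17 in replicate 3 alone. In 55 cases an uncalled gene changed sign and stayed uncalled. Whether the replicate numbers pair the pools cannot be told from so few pools. Deviations of same-numbered pools correlated by 0.23, -0.01 and 0.15. For WT_RV replicates 1 and 3 the same-numbered left pool was the one that correlated best. The fixed replicate block called 222 genes and the random block 270. Of the 179 genes called, 22 have a mean under the median of all values, where signal over background limits what a difference can show. Other probe sets of some called genes also lay under that median and differed less: Gtsf1 (-0.53), Sema3c (0.36), Dio2 (0.22 and 0.22), Robo1 (0.21 and 0.24), Tnni2 (0.04), Myom2 (0.19), Aqp4 (0.37), Bmp5 (0.28 and 0.31), Gja3 (0.31) and Cacna2d2 (-0.24 and -0.05). For Cxcl12 such a probe set differed by 0.14, against the sign of the one used. Brighter other probe sets of Tnni2 (0.80), Myom2 (1.23 and 1.16) and Aqp4 (1.14) had the sign of the one used. Other probe sets of Clu, Spint2 and Chn2 differed much as the probe set used.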
